A study of Mus musculus with 7 samples.

Results

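The T cell receptor complex and the signalling genes next to it were followed in naive mouse CD8 T cells after an inducible gene for the tyrosine kinase Lck was turned off. The group was fixed by name and holds 41 genes: receptor chains, coreceptors, kinases, exchange factors, adaptors and the calcium and NFAT genes. Of these names, 40 were on the array and 38 had a probe bright enough to test, out of 18230 genes tested in all. Syk and Sos1 were too dim, and no probe carried the name Tespa1.

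Both groups were T cells taken from lymph nodes without activation and sorted for CD8b and low CD44. All mice were OT-1het and Rag-/-, so the cells carried a transgenic receptor for an ovalbumin peptide and could rearrange no other. The 3 WT samples had their own Lck gene. The 4 other samples were Lck-/- and had lived on a knocked-in Lck that doxycycline keeps on, which was turned off by taking doxycycline out of the diet for 7 days; they are called Lck-off here. Only the Lck-off mice are described as changing diet, and the series holds no Lck-/- samples kept on the drug. Genotype, diet and loss of Lck cannot be told apart. Samples are described as biological replicates, and nothing says whether each came from 1 animal.

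When the T cell receptor binds its ligand, Lck, carried by the CD8 or CD4 coreceptor, phosphorylates paired tyrosines in the tails of the CD3 and zeta chains. These motifs, called ITAMs, then hold the kinase ZAP-70, which phosphorylates the scaffolds LAT and SLP-76. LAT and SLP-76 gather adaptors of the Grb2 family, phospholipase C-gamma and Vav, and from there signals run to Ras, to NF-kappaB and, through calcium and calcineurin, to NFAT. In resting T cells the same chain gives a weak tonic signal from self peptides.

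Each array probe is an oligo of 60 bases, and 3 of the probes lie on tyrosine codons that this chain of kinases uses. The Cd3d and Cd247 (zeta chain) probes each hold an ITAM pattern, with both tyrosine codons in capitals. The Lat probe holds a tyrosine followed after any 1 residue by asparagine, the kind of site that the SH2 domains of the Grb2 family bind, with the tyrosine codon in capitals.
Cd3d: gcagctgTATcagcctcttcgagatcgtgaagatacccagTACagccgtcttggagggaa
Cd247: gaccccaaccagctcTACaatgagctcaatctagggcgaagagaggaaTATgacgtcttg
Lat: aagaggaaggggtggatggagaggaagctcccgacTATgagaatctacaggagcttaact
Of the 65 member probes searched, 2 held the ITAM pattern and 4 the other pattern in a reading frame without a stop. A match describes the letters of the probe and says nothing of whether the site was phosphorylated. On mm9 the Cd3d probe spans chr9:44794171-44794402 on the plus strand, the Cd247 probe chr1:167786567-167787585 on the plus strand and the Lat probe chr7:133507719-133507778 on the minus strand. The first and second of these spans are longer than the probe, 232 and 1019 bases for 60. The files name the transcript and the position in it but not the exon or the untranslated region. The next probes are shown without capitals because other results turn on them: Tec and Trat1 rose, the Cd8a probe is a second probe of that gene, and the Zap70 probe is a second measure of a kinase that did not pass.
Tec: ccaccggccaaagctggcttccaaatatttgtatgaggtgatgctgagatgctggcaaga
Trat1: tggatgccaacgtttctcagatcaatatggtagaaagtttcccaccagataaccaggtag
Cd8a: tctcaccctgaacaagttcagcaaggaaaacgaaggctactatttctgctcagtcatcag
Zap70: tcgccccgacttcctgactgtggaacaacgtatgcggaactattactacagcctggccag
On mm9 they lie at chr5:73148603-73148662 (minus strand), chr16:48734961-48735020 (minus strand), chr6:71323885-71323944 (plus strand) and chr1:36839315-36839374 (plus strand), in the same order.

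Most of the machinery was measured at levels that did not pass the test of difference. Of 38 measured members 5 were higher in Lck-off (Tec, Lat, Grap, Grap2 and Trat1) and 2 were lower (Rasgrp1 and Malt1), at an adjusted p under 0.05 by limma. That is 18.4% of the members, where 8.38% of all genes tested were called, 3.8% higher and 4.57% lower. The arrays of the groups did not overlap for 13 members (34.2%), against 21.8% over all genes, and 13 had an unadjusted p under 0.05, against 21.5% over all genes. The median difference was 0.04 over the members and -0.01 over all genes, with 23 members above 0 and 15 below. In absolute size the median difference was smaller over the members, 0.099 against 0.135 over all genes. Their median SE was smaller too, 0.085 against 0.111, so a higher share of calls does not mean larger changes. No test compared the members with other genes. With arrays scaled to their median in place of the 75th percentile, Trat1 alone stayed called, 5.04% of all genes were called, and Tec and Malt1 had adjusted p values of 0.0754 and 0.0662 by limma. A difference is the Lck-off mean less the WT mean in log2 units, a level is the log2 intensity relative to the array's 75th percentile, and ± gives the SD (n = 3 for WT, n = 4 for Lck-off). The number of arrays limits the precision. The count of 7 needs all 7 arrays. Dropping WT replicate 1, 2 or 3, or Lck-off replicate 2 or 3, left 3 calls of 38 (Tec, Trat1 and Malt1). In those repeats 5.27% to 7.03% of all genes were called. Dropping Lck-off replicate 4 left 4 calls (5.31% of all genes called), and dropping Lck-off replicate 1 gave 5 (7.71%), with Cd28 among them.

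**Figure D1:**
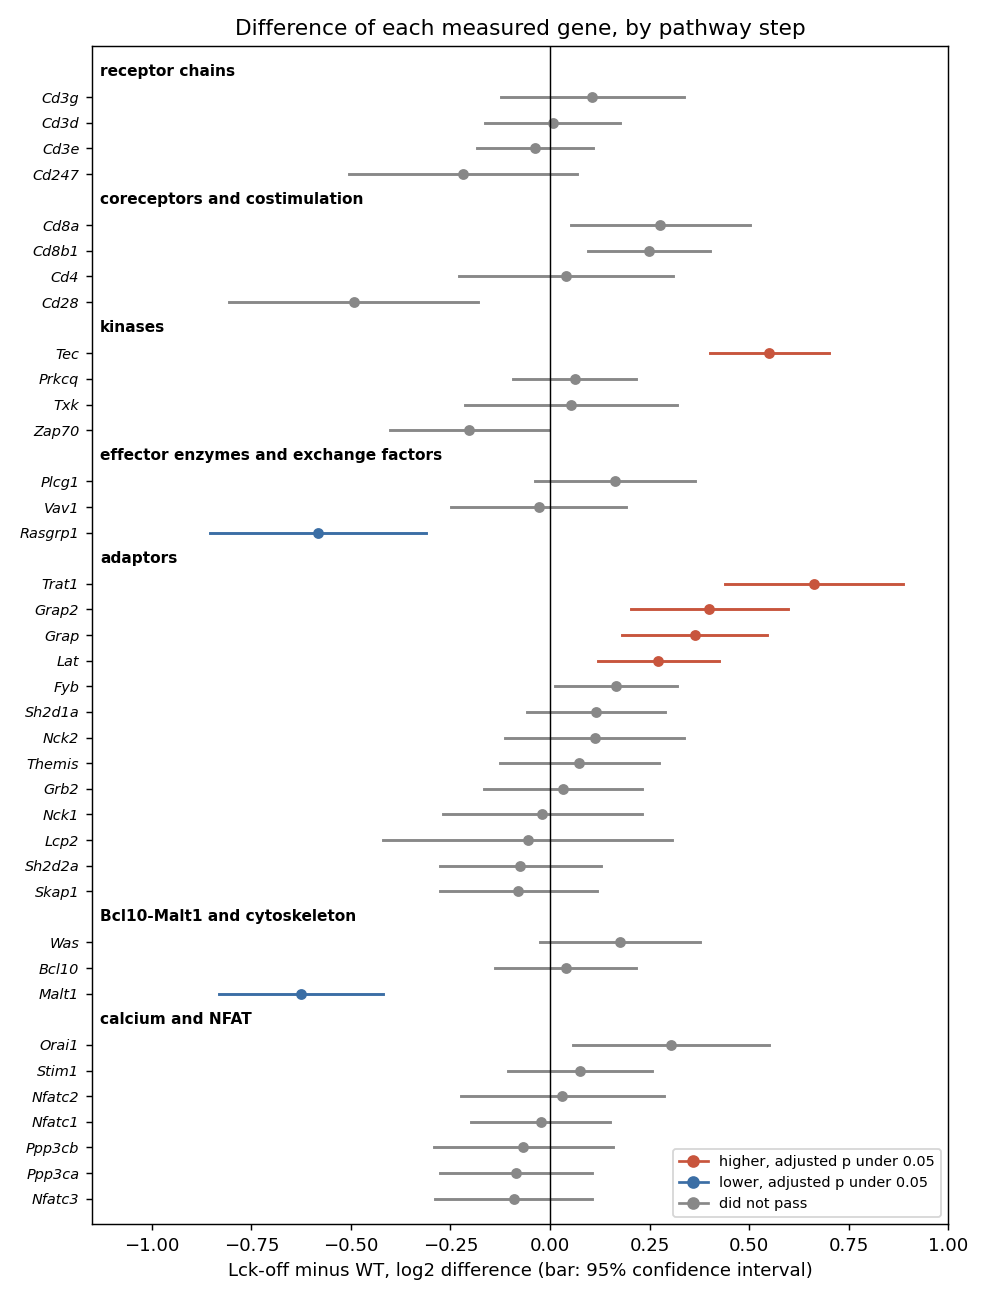
Each point is the Lck-off minus WT log2 difference of 1 measured gene and the bar its 95% confidence interval, grouped by pathway step. The receptor chains and the calcium and NFAT genes are all grey (did not pass), and 4 of the 5 genes higher in Lck-off are adaptors.

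The cells carried the defining genes of CD8 T cells in both groups. All 8 CD8 T cell markers on the array were well above background, none of them was called, and their median difference was -0.01. Of the 10 B cell genes on the array, 5 were well above background on at least 1 array: Cd79b (level 3.70 in WT and 3.62 in Lck-off), Cd22, Cd79a, Cr2 and Blnk. None of these 5 was called by limma, with Cd22 at an unadjusted p of 0.0327 (difference 0.24, no overlap). No array had Ms4a1, Pax5, Ebf1 or Blk well above background. As summed intensity relative to the 75th percentile, the macrophage, monocyte and neutrophil list lay at 41.7 to 58.5 in WT against 51.5 to 61.3 in Lck-off, and the dendritic cell list at 281 to 299 and 306 to 365. The median difference was 0.64 over the 9 measured genes of the macrophage list and 0.88 over the 8 of the dendritic list. Itgam had the highest level of the macrophage list (5.47 in WT, 5.61 in Lck-off), was not called and weighs most in its sum. C1qa, C1qc and Mpeg1 were each well above background on 1 WT array and on 4 Lck-off arrays. Siglech had the highest level of the dendritic list (8.00 in WT, 8.10 in Lck-off) and weighs most in its sum. Ccr9, the called gene of that list, came next (5.03 in WT, 5.72 in Lck-off). Flt3 differed by -0.69 and Zbtb46 by 0.21, and neither was called. The antigen presentation genes H2-Ab1, H2-Eb1, Cd74 and H2-Aa differed by 1.396, 1.26, 1.12 and 1.07 with overlapping arrays, and none of the 4 was called (adjusted p 0.223 to 0.374 by limma). The NK list lay at 304 to 326 and 178 to 202, and the immature thymocyte list at 29.6 to 32.6 and 70.9 to 88.6, a list in which Dntt differed by 2.23. The CD4 and regulatory T cell list lay at 17.96 to 18.7 and 19.8 to 22.7, and Cd40lg and Ctla4 were on no array well above background. The lists held 3 called genes lower for NK cells (Eomes, Il2rb and Nkg7), 2 higher for thymocytes, 1 higher each for the macrophage and dendritic lists, and 1 in each direction for CD4 cells. The other measured NK genes, Prf1, Gzmb and Tyrobp, had the opposite sign (0.20, 0.54 and 0.66) and were not called. Nkg7 had the highest level of the NK list (8.12 in WT, 7.34 in Lck-off) and so weighs most in its sum. Its WT level was close to that of the T cell gene Cd3e (8.06). The lists are named for cell types, but the values do not show which cells made the RNA of a listed gene. The B cell list lay at 12.8 to 14.8 and 12.5 to 15.3, and 1 of the 3 gamma delta markers on the array was detected and did not pass. The part of these lists in the results was not tested. In sorted cells measured in bulk, fewer cells of a type and less RNA per cell cannot be told apart. Lck itself read 8.997 ± 0.02 in WT against 8.62 ± 0.14 in Lck-off, a difference of -0.37 (SE 0.09, adjusted p = 0.0493 by limma), which leaves 77.2% of the WT signal. Its probe may lie outside the altered part of the gene, so it does not check the labels.

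The receptor chains themselves did not pass the test. Of the 4 genes, 0 were called by limma and 0 had an unadjusted p under 0.05, and none was called with trended and robust moderation. Cd3d, Cd3e and Cd3g encode the delta, epsilon and gamma chains of CD3, which carry the receptor to the surface. Cd3d read 8.52, 8.44 and 8.43 on the WT arrays, against 8.38, 8.54, 8.53 and 8.43 on the Lck-off arrays, with full overlap. Its difference of 0.01 had a 95% confidence interval of -0.16 to 0.18. Cd3e read 8.08, 8.01 and 8.08 in WT against 8.02, 8.05, 8.02 and 7.99 in Lck-off, a difference of -0.04 (interval -0.18 to 0.11). Cd3g read 7.22, 7.07 and 7.10 against 7.16, 7.07, 7.32 and 7.39, a difference of 0.11 (interval -0.12 to 0.34). Cd3d turned to -0.012 with median scaling, so its sign is not settled.

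Cd247, the gene of the zeta chain that carries most of the receptor's ITAMs, differed most among the receptor chains. It read 3.47, 3.44 and 3.52 in WT against 3.36, 2.93, 3.37 and 3.36 in Lck-off, so every Lck-off array lay below every WT array. Lck-off replicate 2 stood lowest. The difference of -0.22 did not pass (SE 0.12, adjusted p = 0.372 by limma), and the second Cd247 probe went the other way (0.23, interval -0.05 to 0.52).

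None of the 4 coreceptor and costimulatory genes passed by limma, but 3 of them had an unadjusted p under 0.05 and no overlap between groups. Over all genes, 21.5% had an unadjusted p under 0.05 by limma and 21.8% had no overlap. The coreceptors bring Lck to the receptor, and the sort used the CD8b protein, so that Cd8b1 was measured in cells chosen for its product. Cd8b1 read 7.25, 7.25 and 7.32 in WT against 7.46, 7.57, 7.503 and 7.54 in Lck-off. The lowest Lck-off array was above the highest WT array, and the difference was 0.25 (SE 0.07, adjusted p = 0.0650 by limma). Cd8a read 6.17, 6.06 and 6.11 in WT against 6.60, 6.28, 6.40 and 6.28 in Lck-off, again without overlap, a difference of 0.28 (SE 0.10, adjusted p = 0.146 by limma). The second Cd8a probe, whose sequence is given above, read 4.80, 4.62 and 4.73 in WT against 5.20, 4.97, 5.37 and 5.25 in Lck-off. In the fit over all 25576 kept probes, where 7.33% were called, that probe passed with a difference of 0.48 (adjusted p = 0.0434 by limma).

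Cd28, the main costimulatory receptor of naive T cells, had the opposite sign. It read 3.58, 3.64 and 3.71 in WT against 3.42, 2.88, 3.26 and 3.04 in Lck-off, with no overlap and a wider spread in Lck-off (0.24 against 0.07). The difference of -0.49, 71.0% of the WT level, did not pass (interval 57.2% to 88.3%, adjusted p = 0.0717 by limma). Cd28 and Cd8b1 did pass with the authors' deposited values (adjusted p = 0.0233 and 0.0418 by limma), with normexp background correction (0.0226 and 0.0459) and with trended and robust moderation (0.0161 and 0.0142). Of 20 other settings, Cd28 passed in 5 and Cd8b1 in 3. The adjusted p by limma was 0.256 and 0.596 with median scaling and 0.239 and 0.329 with no filter on dim probes. Over all settings tried for Cd28 the difference lay between -0.64 and -0.38, and over those for Cd8b1 between 0.21 and 0.27.

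Cd4, the coreceptor of helper cells, was read in these CD8-sorted cells by a probe well above background on all 7 arrays. That probe read 2.00, 2.26 and 1.92 in WT against 2.01, 2.30, 2.00 and 2.10 in Lck-off, a difference of 0.04 (interval -0.23 to 0.31). It starts at base 3035 of its transcript. The other Cd4 probe, starting at base 1242, was well above background on 2 of 3 WT and 2 of 4 Lck-off arrays. Neither probe was called.

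**Figure D2:**
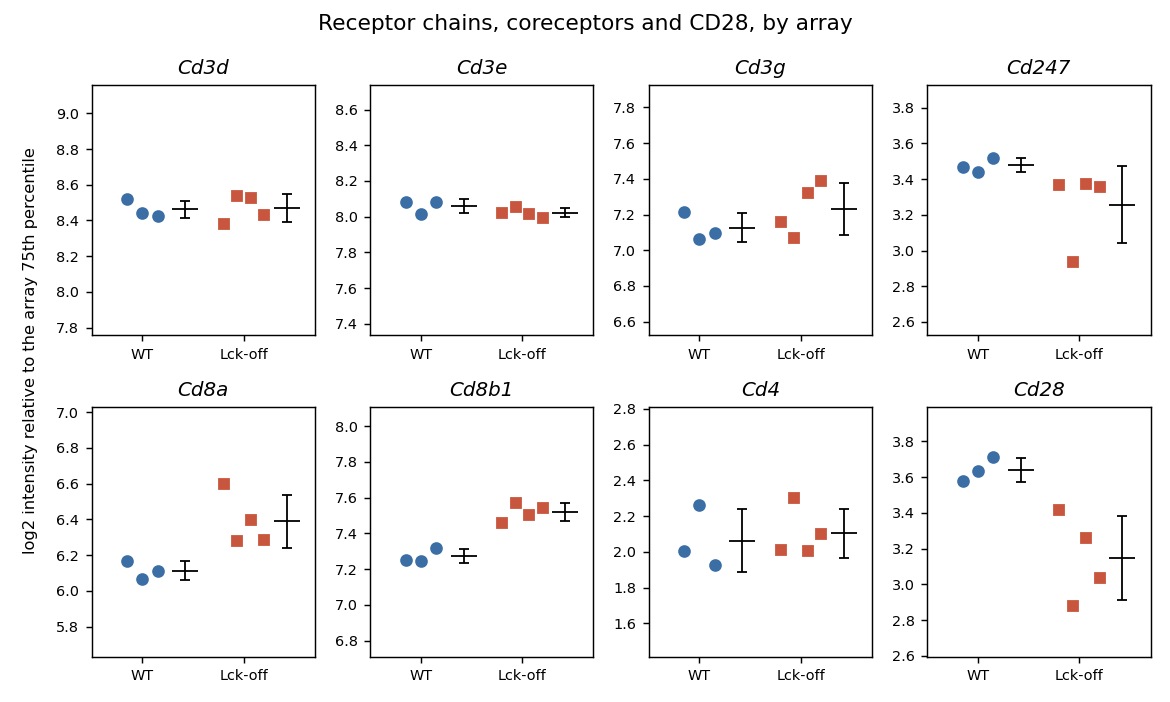
Log2 intensity relative to the array 75th percentile on each array for the receptor chains, the coreceptors and Cd28, with WT as circles, Lck-off as squares and the mean with its SD beside them; every panel spans the same height. The CD3 chains overlap between groups, Cd8a and Cd8b1 sit higher and Cd28 lower in Lck-off, and the lone low Cd247 square is Lck-off replicate 2.

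Of the 4 measured kinases, Tec rose and the other 3 did not pass. Tec is a kinase that acts on phospholipase C-gamma, and it read 2.00, 2.02 and 2.03 in WT against 2.60, 2.57, 2.61 and 2.49 in Lck-off. The groups were separated by far more than the spread within either. Its level rose by 0.55 (SE 0.06, adjusted p = 0.00265 by limma), to 146% of WT (95% confidence interval 132% to 163%). The second Tec probe, printed above, rose by 0.56 (adjusted p = 0.0117 by limma). Tec stayed called in all 7 repeats that left out 1 array, with adjusted p values of 0.00854 to 0.0152.

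The kinases that bind and extend the receptor signal did not pass. Zap70, whose product docks on the ITAMs, read 7.44, 7.32 and 7.46 in WT against 7.22, 7.33, 7.19 and 7.07 in Lck-off. Only Lck-off replicate 2 reached the WT range. The difference of -0.20 (interval -0.40 to -0.00356) had an unadjusted p of 0.0470 and an adjusted p of 0.225 by limma, and the second Zap70 probe gave -0.19. Txk, a relative of Tec, differed by 0.05 (interval -0.21 to 0.32), and Prkcq, the protein kinase C theta of the synapse, by 0.06 (interval -0.09 to 0.22). Syk, which takes the place of ZAP-70 in B cells and myeloid cells, was well above background on none of the WT arrays. Its probe for the RefSeq transcript was well above background on 2 of 4 Lck-off arrays, with a measured mean of -4.46 in WT against -3.42 in Lck-off. The arrays of the groups overlapped: WT replicate 2 read -3.37, and the Lck-off arrays read -3.54, -2.91, -3.78 and -3.43. The difference was not tested. The other Syk probe was not well above background on any array.

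Among the effector enzymes and exchange factors, 1 of 3 measured genes was called by limma. Rasgrp1, the exchange factor that loads Ras in T cells when diacylglycerol is made, read 4.34, 4.53 and 4.44 in WT against 4.12, 3.71, 3.86 and 3.73 in Lck-off. All Lck-off arrays were lower, with Lck-off replicate 1 nearest to WT. Rasgrp1 fell by 0.58 on the log2 scale (SE 0.12, adjusted p = 0.0236 by limma), to 66.8% of WT (interval 55.3% to 80.6%). Its second probe fell by 0.38 (adjusted p = 0.0294 by limma). The Rasgrp1 call held when Lck-off replicate 1 was dropped and was lost when any other array was (largest adjusted p 0.0927 by limma).

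Plcg1, the phospholipase C-gamma that splits membrane lipid into calcium and Ras signals, differed by 0.16 (interval -0.04 to 0.36). Vav1, the exchange factor for Rac, differed by -0.03 (interval -0.25 to 0.19). The other Ras exchange factor, Sos1, was well above background on 0 of 3 WT and 1 of 4 Lck-off arrays and has no difference here.

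Adaptors held most of the rises: 4 of 13 measured adaptor genes rose, none fell and 9 did not pass. That is 30.8% called, where 3.8% of all genes tested were called higher and 4.57% lower. Of these 4 adaptors, Trat1 alone kept its call whichever array was dropped. Trat1, an adaptor of the receptor complex also called TRIM, read 1.50, 1.46 and 1.37 in WT against 1.98, 2.00, 2.19 and 2.26 in Lck-off. It rose by 0.66 (SE 0.10, adjusted p = 0.00613 by limma), to 158% of WT (interval 136% to 185%), the largest rise among the members. Trat1 stayed called in all 7 repeats with 1 array left out, with adjusted p values of 0.00949 to 0.0305.

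Grap2 (Gads) links SLP-76 to LAT, and Grap is its relative in the Grb2 family. Grap2 read 4.60, 4.48 and 4.59 in WT against 4.96, 5.07, 4.98 and 4.81 in Lck-off, without overlap, and rose by 0.40 (SE 0.08, adjusted p = 0.0290 by limma). Its second probe gave 0.28 and did not pass (adjusted p = 0.148 by limma). Grap read 4.98, 5.11 and 5.07 in WT against 5.39, 5.54, 5.39 and 5.35 in Lck-off, and rose by 0.36 (SE 0.08, adjusted p = 0.0306 by limma). Grb2, the founding member that brings Sos to LAT, read 4.48, 4.60 and 4.71 in WT against 4.59, 4.73, 4.66 and 4.55 in Lck-off. Its difference was 0.03 with an interval of -0.17 to 0.23, and whether Grap or Grap2 differed from Grb2 in response was not tested.

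Lat, the membrane scaffold on which these adaptors meet, read 6.80, 6.78 and 6.71 in WT against 6.99, 7.09, 7.02 and 7.04 in Lck-off. The groups did not overlap and the rise was small, 0.27 (SE 0.06, adjusted p = 0.0466 by limma), or 121% of WT (interval 109% to 134%). Lat and Grap lost their call whichever array was dropped (largest adjusted p 0.136 and 0.0991 by limma), and Grap2 lost it for every array other than Lck-off replicate 4 (largest adjusted p 0.114). Blocking on slide row gave adjusted p values of 0.0784 for Lat, 0.0530 for Grap and 0.0452 for Grap2.

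**Figure D3:**
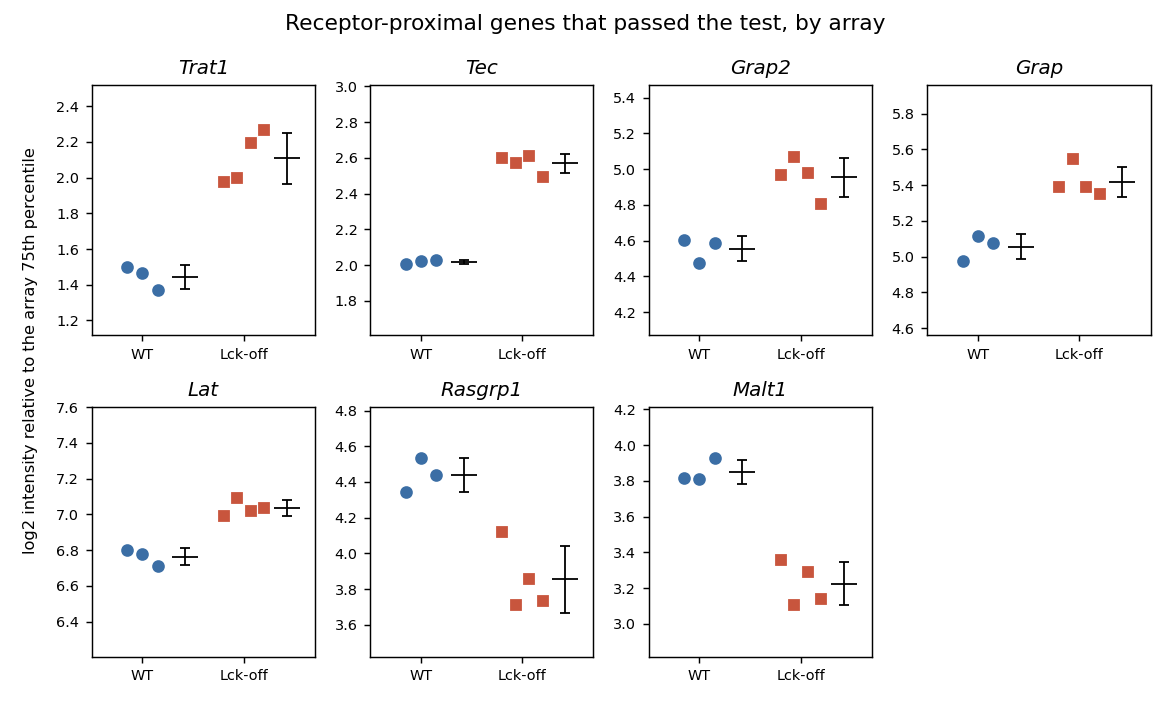
Log2 intensity relative to the array 75th percentile on each array for the 7 genes that passed the test, with WT as circles, Lck-off as squares and the mean with its SD beside them; every panel spans the same height. In each panel the groups do not overlap, and Tec shows the tightest WT values.

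Lcp2 (SLP-76), the scaffold that Grap2 joins to LAT, gave probes that disagreed. The brightest read 0.65, 0.86 and 1.21 in WT against 0.87, 1.07, 0.83 and 0.64 in Lck-off, a difference of -0.06 (interval -0.42 to 0.31). The other, on a different transcript entry, read 0.47, 0.21 and 0.08 in WT against 1.09, 0.64, 0.66 and 0.65 in Lck-off, a difference of 0.51 (interval 0.16 to 0.86). That probe did not pass over all probes (adjusted p = 0.0949 by limma). Its arrays did not overlap between groups, while those of the brightest probe did.

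The remaining adaptors lay within 0.17 of 0 by their brightest probe. Fyb (ADAP), which couples SLP-76 to integrins, differed by 0.17 (interval 0.01 to 0.32, adjusted p = 0.199 by limma), with every Lck-off array above every WT array. Skap1, the partner of Fyb, differed by -0.08 and Themis, which sets signal strength during thymic selection, by 0.07. Nck1 and Nck2, which link the receptor to actin, differed by -0.02 and 0.11. The second Nck2 probe gave 0.34 (interval 0.07 to 0.61) without overlap and did not pass over all probes (adjusted p = 0.142 by limma). Sh2d1a (SAP), the adaptor of SLAM receptors, and Sh2d2a (TSAd), which binds Lck, differed by 0.12 and -0.07. None of these 7 adaptor genes was called by limma with all arrays.

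Downstream, Malt1 fell and its partner Bcl10 did not pass. MALT1 is a protease and scaffold that joins BCL10 in the complex that opens the NF-kappaB pathway. Malt1 read 3.81, 3.81 and 3.93 in WT against 3.36, 3.104, 3.29 and 3.14 in Lck-off. The highest Lck-off array was well under the lowest WT array. Malt1 fell by 0.63 on the log2 scale (SE 0.09, adjusted p = 0.00555 by limma), to 64.8% of WT (interval 56.2% to 74.7%). It stayed called in all 7 repeats with 1 array left out (adjusted p = 0.00775 to 0.0273). Malt1 was read by a single probe. Bcl10 read 2.25, 2.24 and 2.43 in WT against 2.30, 2.33, 2.40 and 2.35 in Lck-off, a difference of 0.04 (interval -0.14 to 0.22). Was, the actin regulator of the Wiskott-Aldrich syndrome, differed by 0.18 (interval -0.03 to 0.38).

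The arrays sat in both rows of the slide. The called genes kept their direction within each row. That was fixed in advance, because their groups do not overlap, so only the sizes could differ. In row 1 (1 WT, 2 Lck-off) Trat1 differed by 0.72, Tec by 0.57, Grap2 by 0.44, Grap by 0.39 and Lat by 0.34, while Rasgrp1 differed by -0.65 and Malt1 by -0.73. In row 2 (2 of each group) the values were 0.64 for Trat1, 0.53 for Tec, 0.35 for Grap2, 0.32 for Grap and 0.22 for Lat, and -0.51 for Rasgrp1 and -0.56 for Malt1. No member was called by limma within a row alone, where 4 members in row 1 (10.5%, against 13.8% of all genes) and 7 in row 2 (18.4%, against 14.9%) had an unadjusted p under 0.05.

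**Figure D4:**
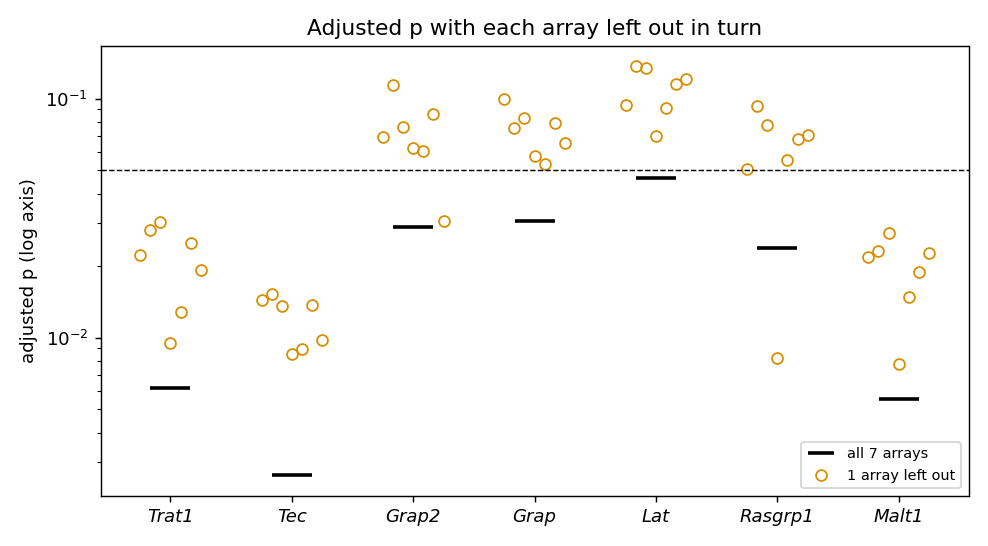
Adjusted p (log axis) of the 7 called genes with all 7 arrays (bar) and with each array left out in turn (open circles); the dashed line is the threshold of 0.05. Trat1, Tec and Malt1 stay under the line in every repeat, while Lat and Grap rise above it in every repeat.

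None of the calcium and NFAT genes passed: 0 of 7 were called by limma, 1 had an unadjusted p under 0.05, and none was called with trended and robust moderation. Over all genes, 21.5% had an unadjusted p under 0.05 by limma. Calcineurin removes phosphate from NFAT so that it enters the nucleus. Its catalytic subunit genes Ppp3ca and Ppp3cb differed by -0.09 and -0.07. Nfatc1, the member induced by receptor signals, read 3.96, 3.97 and 4.07 in WT against 3.90, 3.93, 4.08 and 3.99 in Lck-off, a difference of -0.02 (interval -0.20 to 0.15). Nfatc2 and Nfatc3 differed by 0.03 and -0.09.

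Orai1, the pore of the calcium channel that opens when stores empty, was the gene of this step with the unadjusted p under 0.05. It read 1.295, 1.43 and 1.65 in WT against 1.81, 1.87, 1.69 and 1.68 in Lck-off, with a narrow gap between the groups. The difference of 0.30 (interval 0.06 to 0.55) did not pass (adjusted p = 0.144 by limma), and the second Orai1 probe gave 0.22. Stim1, the sensor of the calcium store, differed by 0.07.

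Other probes of the same genes gave a check on these readings. For 22 members with several kept probes there were 27 further probes, of which 16 had the sign of the brightest and 11 the opposite. The brightest probe's difference lay outside the 95% confidence interval of the other for 5 of them, in Cd247, Rasgrp1, Lcp2, Nfatc1 and Nfatc3. For Rasgrp1 both probes fell, by different amounts. Of the called genes, Tec, Rasgrp1 and Grap2 have a second probe and each pair shares its sign, while Trat1, Lat, Grap and Malt1 have 1 probe each.

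**Figure D5:**
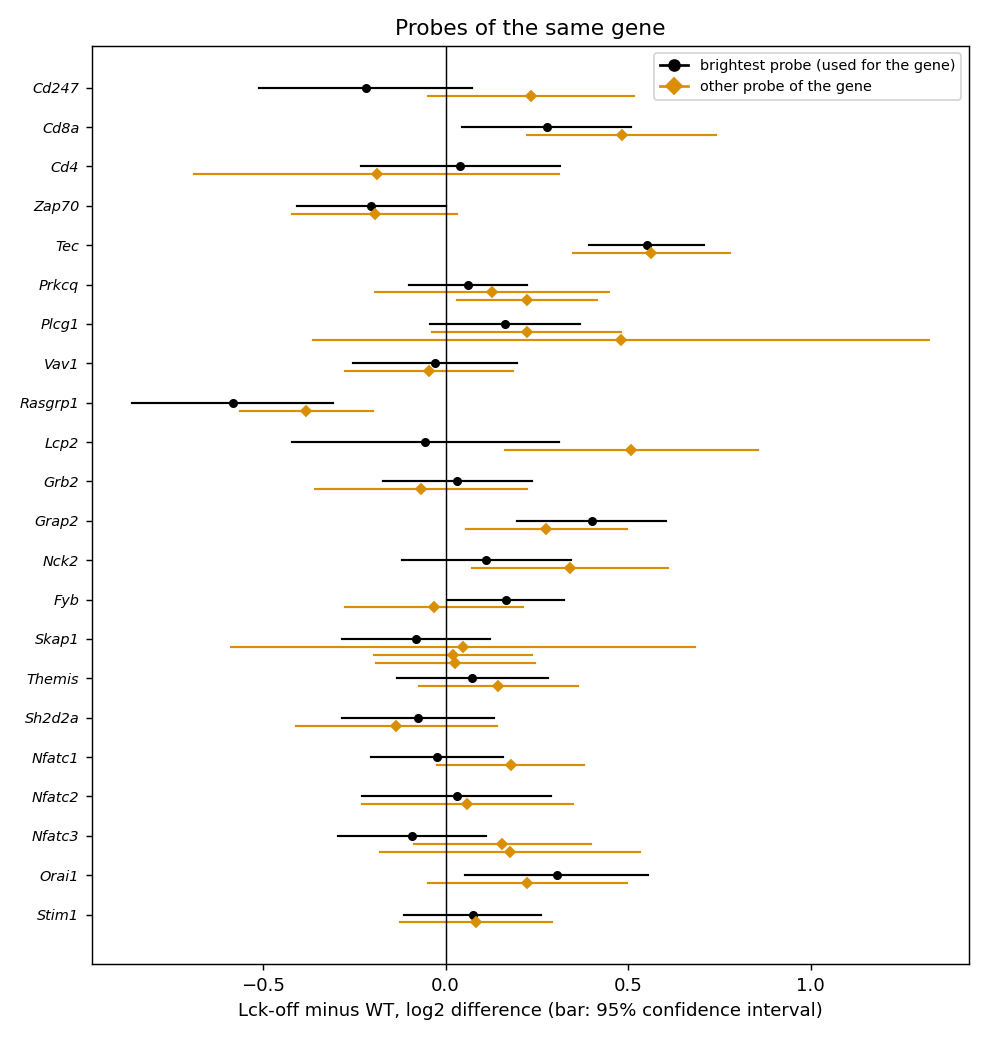
Lck-off minus WT log2 difference and 95% confidence interval for each kept probe of the 22 members with several, the brightest probe as a circle and the others as diamonds. Tec, Rasgrp1, Grap2 and Zap70 have probes on the same side of 0, and Cd247 and Lcp2 have probes that point in opposite directions.

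The wider pathway was taken from lists of other genes near the receptor. Of 115 measured genes 5 were higher and 8 lower, 11.3% in all, against 8.38% of all genes tested. These 13 calls became 3 (Cd5, Cd6 and Ubash3b) with arrays scaled to their median, and likewise with no filter on dim probes. Of all genes tested, 5.04% and 2.06% were called under these settings. Dropping WT replicate 1 left 6 calls, WT replicate 2 left 4 and WT replicate 3 left 5, while dropping Lck-off replicate 3 left 4 and Lck-off replicate 4 left 3. In those repeats 5.27% to 5.96% of all genes were called. Kinases and phosphatases held 4 calls of 10, receptor partners 3 of 8, and adaptors and ubiquitin ligases 3 of 19. Ras and MAP kinases held 1 of 17, calcium and NFAT genes 1 of 22, and diacylglycerol, protein kinase C and NF-kappaB genes 1 of 17. None of the 10 PI3K and Akt genes was called by limma, with 2 at an unadjusted p under 0.05, against 21.5% of all genes.

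Sos2, the other Sos exchange factor, fell by 0.39 (adjusted p = 0.0357 by limma), in a list where Rasgrp1 is not counted. Itpr1, the receptor that lets calcium out of the store after phospholipase C acts, fell by 0.47 (adjusted p = 0.0211 by limma). Dgka, which removes the diacylglycerol that RasGRP1 needs, rose by 0.32 (adjusted p = 0.0333 by limma). Pag1, the anchor of the Lck inhibitor Csk, rose by 0.56 (adjusted p = 0.0206 by limma), and Ptpn6, the phosphatase SHP-1, fell by 0.68 (adjusted p = 0.0209 by limma). Ubash3b, a phosphatase that acts on ZAP-70, fell by 1.14 and Sh3bp2, an adaptor that binds ZAP-70, by 0.92 (adjusted p = 0.00294 and 0.0263 by limma). The inhibitory partners Cd5 and Cd6 fell by 1.12 and 0.91 (adjusted p = 0.000408 and 0.000689 by limma), more than any of the 38 measured members. Ubash3b, Cd5 and Cd6 stayed called whichever array was dropped. Dgka lost its call in all 7 repeats, Lck in 6 (all but the one without Lck-off replicate 2), and Sos2, Itpr1 and Pag1 in 5 (all but those without Lck-off replicate 1 or 2). Sh3bp2 lost it in 4 (without WT replicate 2 or 3 or Lck-off replicate 3 or 4) and Ptpn6 in 2 (without Lck-off replicate 3 or 4), and the largest adjusted p among these was 0.154 for Lck. Pag1 differed by only 0.20 with normexp background correction and by 0.19 with the authors' deposited values, and passed with neither.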

How the data were processed

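Total RNA was labelled with Cy3 and hybridised to 7 Agilent arrays of design 028005 on 1 slide. Per the file headers, the authors' Feature Extraction 10.7.3.1 software made the processed intensity (background subtracted and detrended within each array), the mean and background intensity, and the flags, with probe positions on mm9. The authors' deposited values were judged to be log2 from their range (column medians 6.34 to 6.35, r 0.953 to 0.964 with the scanner values); the submitters' processing notes name limma, with no version, and its centring and any background step are unknown here.

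From the log2 of each processed intensity, the 75th percentile of that array over non-control spots was subtracted (208 to 243 in intensity). Spots flagged non-uniform were left out, spots of a probe averaged, and a probe was kept if 3 or more of 7 arrays had it well above background (25576 of 55681, 42.5% to 48.6% per array). No spot was saturated. The brightest kept probe stood for a gene. Pearson's r across genes, which are not independent replicates, was 0.990 to 0.995 within a group and 0.983 to 0.987 between groups. The contrast of Lck-off and WT was fitted in limma 3.58.1 (R 4.3.3, data.table version 1.17.8), unblocked, two-sided, Benjamini-Hochberg adjusted over all 18230 genes, with a threshold of 0.05. The p-values measure the spread between these samples. The fit was tested on simulated data. The probe motifs searched were a pair of YxxL or YxxI sites 6 to 8 residues apart and YxN, in reading frames without a stop, on the probe strand alone, leaving out 3 probes. Alternatives were other background correction, scaling, filters, probe rule, moderation, the deposited table, blocking on the replicate number or on the slide row, and dropping single arrays; each slide row alone was added after seeing the data. Every member is accounted for, with array values for all called genes and all receptor and coreceptor genes; pathway genes are the 2 called genes of smallest p in each list, and Lck. Array values for further members were added after they were seen. Members and lists were chosen with earlier results of these data known. Some genes and 1 list of pathway genes are not reported here.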

Additional observations from a re-analysis of the deposited data

Results flagged for a closer look

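Of 48 genes examined in the 4 Lck-off arrays, 2 had an array far from the other 3; the WT group of 3 is too small for this rule, and chance flags about 1 in 20 groups. Cd247 read 2.93 on Lck-off replicate 2, where the nearest other Lck-off array read 3.36. Themis read 2.94 on Lck-off replicate 2, where the nearest other read 3.11. The 2 low readings lie on the same array.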

How the results depend on the processing

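Beside 5 members higher, 2 lower and 1527 genes changed in all, scaling to the array median gave 1, 0 and 918, no filter on dim probes 2, 1 and 717, a replicate block 0, 0 and 374, slide row 1 alone 0, 0 and 105, and row 2 alone 0, 0 and 0 (2711 genes at an unadjusted p under 0.05 by limma). The slide row as a block gave 3 higher. Leaving out each array in turn gave 2 to 3 higher, 1 to 3 lower and 960 to 1406 genes changed. The other settings stayed within 1.5 times, and the 7 called members kept their sign under every setting run. Since their groups do not overlap, the sign was fixed in advance for each row alone and for each repeat that dropped an array.

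Same-numbered samples correlated at 0.106, 0.049 and -0.008 in their deviations from the group means, and different-numbered samples at -0.174 to 0.138. With so few arrays, these values cannot decide whether the replicate numbers pair the samples. With the replicate block, which drops Lck-off replicate 4, 9 members (23.7%, against 15.5% of all genes) had an unadjusted p under 0.05, and the adjusted p by limma was 0.0707 for Tec, 0.0835 for Malt1 and 0.0980 for Trat1.

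Of 43 reversals, every one belongs to a member that did not pass; the cause was not tested. Median scaling gave Cd3d -0.012. The mean of all kept probes gave Cd247 0.0071, Cd4 -0.074, Lcp2 0.23, Grb2 -0.017, Skap1 0.0038, Nfatc1 0.077 and Nfatc3 0.0803. The replicate block gave Lcp2 0.014 and Nck1 0.0019, and the row block Cd3d -0.0032 and Nfatc2 -0.0067. With each array left out in turn, the sign turned within ranges of -0.017 to 0.036 for Cd3d, -0.028 to 0.14 for Cd4, -0.041 to 0.145 for Txk, -0.0898 to 0.028 for Vav1, -0.185 to 0.096 for Lcp2, -0.026 to 0.088 for Grb2, -0.13 to 0.060 for Nck1, -0.058 to 0.012 for Nfatc1 and -0.040 to 0.128 for Nfatc2. Row 1 alone gave Grb2 -0.018, Nck2 -0.10, Skap1 0.052, Themis -0.091, Bcl10 -0.064 and Nfatc2 -0.077, and row 2 alone Cd3d -0.077, Cd4 -0.077, Txk -0.027, Lcp2 0.00088 and Nck1 0.012. Signal over background limits Syk and Sos1.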
